A study of Homo sapiens with 2 samples.

Results

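The genes of cholesterol and fatty acid synthesis, together with genes of sterol uptake, transport and export and of the SREBP control system, were examined in SAS, a human cell line established from a squamous carcinoma of the tongue. The 40 genes were chosen by name as enzymes, carriers and regulators of these pathways, with earlier results of the same data known, out of 18336 genes named by a probe of the array. The sample labelled shATMIN carried a short hairpin RNA against ATMIN, whose zinc finger protein binds the kinase ATM and regulates transcription. The other sample is labelled neo and served as its control. Per the labels' protocols, plasmids were delivered with a lipid reagent, and 24 h later cells were given 10% serum and 3 µg/mL puromycin, and the clones that survived were cultured. This protocol text is identical for both samples, and the sources used here give neither the number of clones, nor the hairpin sequence, nor what the neo cells carried. The stated question of the series was the effect of ATMIN knock-down on progression of the cancer. Each group held 1 sample, so the differences describe these 2 samples, without a replicate check or a p-value. The genes were proposed with these same differences known, so nothing below is a test of the set.

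Cholesterol is built in the endoplasmic reticulum from acetyl-CoA, first to mevalonate and the isoprenoid farnesyl diphosphate, then to squalene, lanosterol and finally cholesterol, while fatty acids are built from the same acetyl-CoA in the cytosol. The transcription factors SREBP1 and SREBP2 switch on the enzymes of both routes when membrane sterol is low. They are escorted to the Golgi by SCAP, held back in the endoplasmic reticulum by the INSIG proteins, and released from the membrane by a pair of proteases. Squamous carcinoma cells, like other dividing cells, use both routes to supply new membrane.

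Each sample had 1 linear intensity for each of 31741 probes, from Cy5-labelled RNA, and 2 arrays are listed for a sample. The median intensity over all probes was 106 in the shATMIN sample and 109 in the neo sample, and the upper quartile was 535 against 629. ATMIN itself read 61.5 in the shATMIN sample and 105 in the neo sample, which is -0.76 in log2 units. Of all compared genes 5.25% were lower by more than ATMIN, as were 6 of the sterol and fatty acid genes. All 8 markers listed for squamous epithelial cells were measured above that limit. As 12421 of the 18336 named genes also passed it, this is a weak check of the squamous label. The summed intensity of the 8 was 55822 in the shATMIN sample and 61409 in the neo sample. Of these sums EPCAM alone gave 23080 and 30888. The 8 markers did not differ alike, and 3 of them differed by about as much as the genes of the set that differed most. KRT14 read 2555 in the shATMIN sample and 1284 in the neo sample, KRT6A 2024 against 1013, and TP63 2060 against 4717, with log2 differences of 0.99, 1.00 and -1.19. A second TP63 probe gave -0.06. Of 15 measured markers of other cell types 7 were above that limit, and their summed intensity was 3706 in the shATMIN sample and 4027 in the neo sample. The 7 were the monocyte gene CD14 at 2602 against 2858, the fibroblast gene COL1A1 at 423 against 459, the endothelial genes PECAM1, CDH5 and VWF with differences of 0.15, -0.60 and -0.17, the muscle gene MYH2 at 0.04 and the adipocyte gene ADIPOQ at 0.67. PTPRC and CD3E of leukocytes, COL1A2, PDGFRB and DCN of fibroblasts, DES of muscle, and PLIN1 and FABP4 of adipocytes lay below the limit in both samples. The part of the epithelial and other marker signals in the differences of the set was not tested. In RNA pooled from many cells, fewer cells expressing a gene and less RNA per cell cannot be told apart.

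Genes of sterol and fatty acid synthesis read lower in the shATMIN sample at nearly every step of the pathway. Every one of the 40 genes had a probe that named it alone, and 39 were compared, STARD4 being too dim. A gene was represented by its brightest such probe, and it was compared where the mean log2 level reached 5.90, an intensity of 58.9. Of the 39 genes 37 were lower in the shATMIN sample, against 70.7% of all 12421 compared genes, and 2 were higher, against 29.3%. The median difference, shATMIN minus neo on the log2(intensity + 1) scale, was -0.54 over the 39 genes and -0.16 over all compared genes. At least 1.5-fold lower were 14 of the 39, against 12.2% of all compared genes, and at least 2-fold lower were 3, CYP51A1, LPIN1 and SQLE, against 1.34%. None of the 39 was at least 1.5-fold higher, against 1.9% of all compared genes. The genes just inside the 1.5-fold limit were ELOVL5 at -0.60, NPC1 at -0.60 and ACLY at -0.61, and just outside it lay HMGCS1 at -0.58 and MVK at -0.56.

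**Figure D1:**
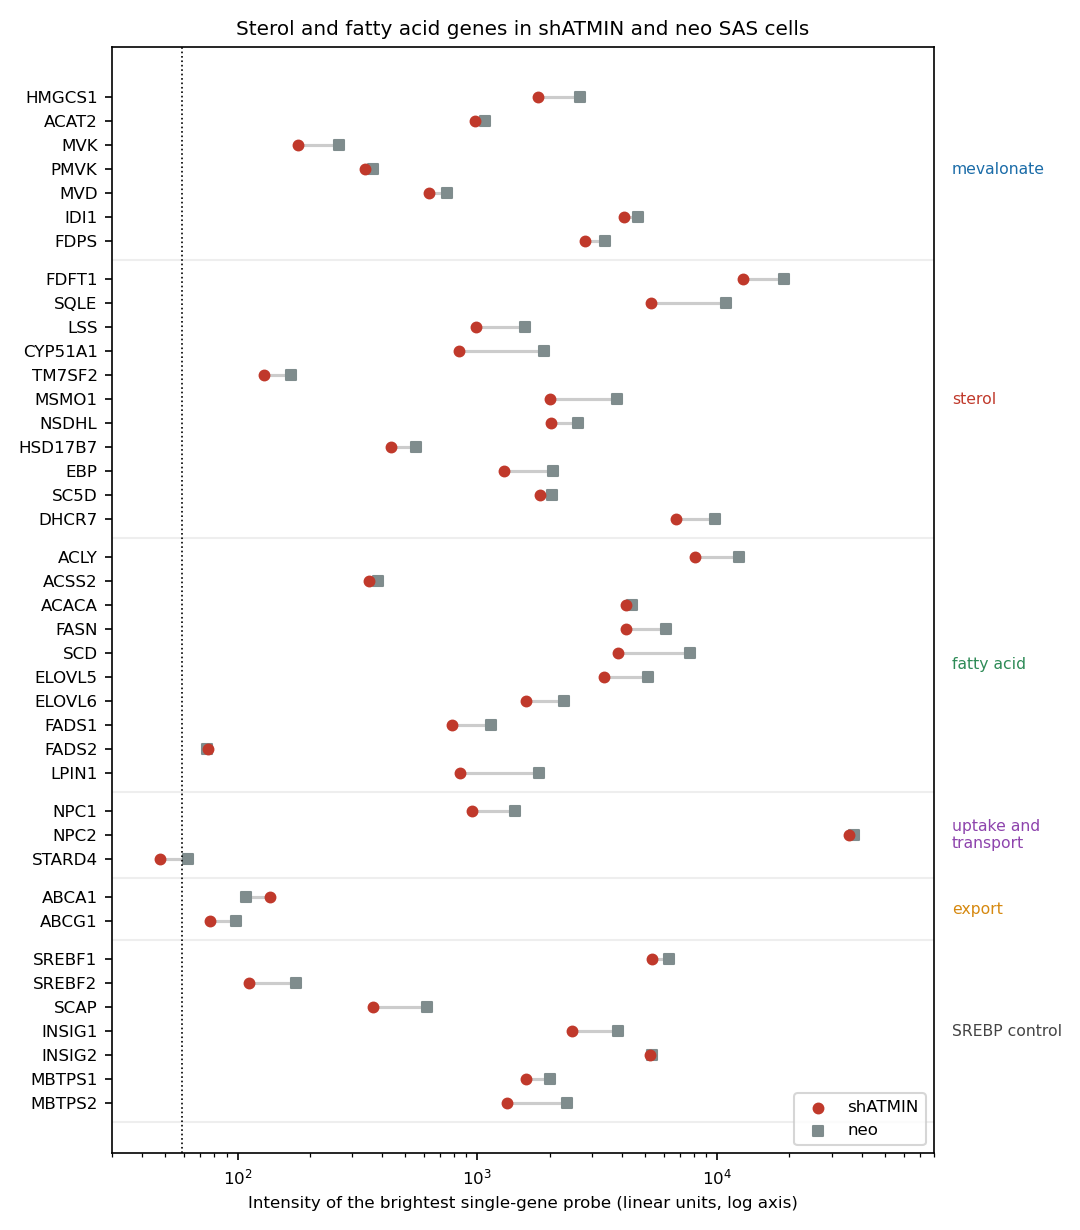
Intensity of the brightest single-gene probe of each of the 40 genes on a log axis, ordered by step, with the shATMIN sample as circles, the neo sample as squares and the dim limit of 58.9 as a dotted line. The shATMIN circle lies left of the neo square for all genes but ABCA1 and FADS2, and STARD4 straddles the limit.

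The samples were not scaled to each other here, and the sources used do not say whether the deposited values had been scaled. The difference varied with level over all compared genes. At the levels of the 39 genes a loess trend through all compared genes had a median of -0.24. With that trend removed the median of the 39 genes was -0.31, against 0.01 over all compared genes, and 28 of the 39 were lower, against 48.5% of all. On that scale 5 were at least 1.5-fold lower, against 4.63% of all, and 0 were at least 2-fold lower, against 0.354%. After scaling both samples to the 75th percentile, which moved the median of all compared genes by 0.23 to 0.07, the median of the 39 genes was -0.30 and 29 were lower, against 41.2% of all. On that scale 6 were at least 1.5-fold lower, against 3.9%, and 0 were at least 2-fold lower, against 0.29%. The 5 genes at least 1.5-fold lower on all of these scales were CYP51A1, LPIN1, SQLE, SCD and MSMO1, each on its brightest probe. A second MSMO1 probe stood at only -0.19 as deposited. That is smaller in size than the 0.23 by which the 75th percentile scaling moved the median of all compared genes. A group of 9 genes read lower as deposited and higher under at least 1 other setting: ACAT2, PMVK, MVD, IDI1, SC5D, ACSS2, ACACA, NPC2 and INSIG2. The direction of those 9 therefore rests on the scaling or on the probe, and 28 genes were lower under every setting in which they were compared. The share of all compared genes lower under every setting was not computed, so the 28 have no background beside them.

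**Figure D2:**
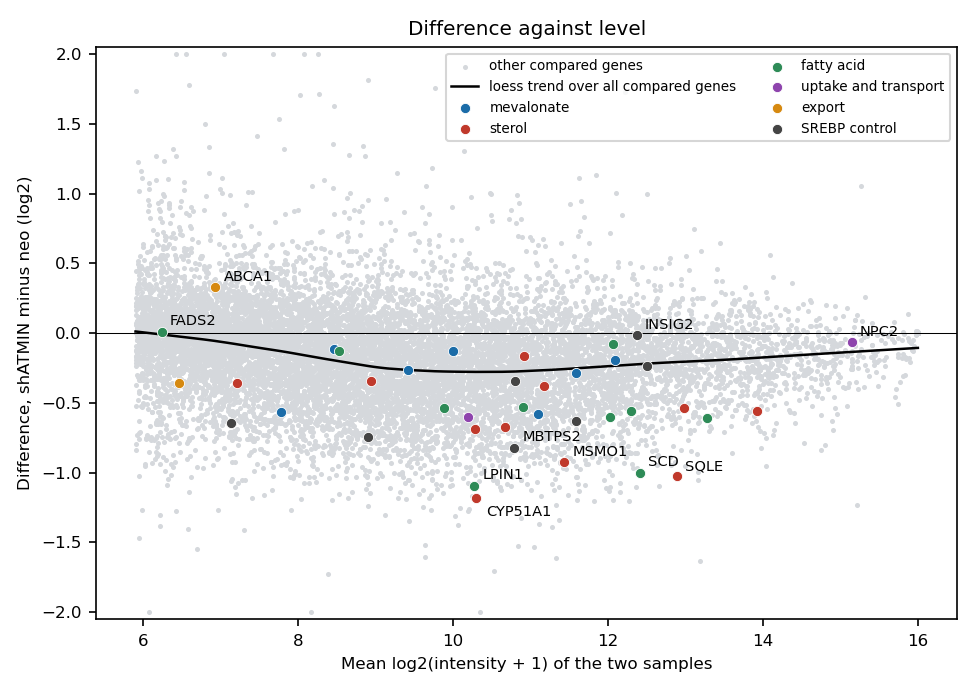
Difference, shATMIN minus neo (log2), against the mean log2 level of the 2 samples for all 12421 compared genes in grey and the 39 sterol and fatty acid genes in colour, with differences beyond the axis drawn at its edge and the loess trend as a line. Most coloured points lie below the line, with CYP51A1, LPIN1, SQLE and SCD lowest and ABCA1 highest.

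A technical error could be set beside the dimmer values. A deposited value below 400 could nearly always be written as the mean of a single pair of scaled whole-number readings. That pair is inferred from the values alone, and on simulated readings with another form of scale factor many pairs were not unique and some were wrong. The sources used here do not say whether such readings are the 2 listed arrays. The SD between the 2 readings of a gene was 0.13 in the shATMIN sample and 0.11 in the neo sample on the log2 scale, over 5135 compared genes. For 8 of the 39 genes both samples could be resolved. In 5 of the 8, MVK, TM7SF2, ACSS2, ABCG1 and SREBF2, both shATMIN readings lay below both neo readings, against 41.0% of the 5135 genes. In 1, ABCA1, both lay above, against 23.7%, and PMVK and FADS2 overlapped. The brighter genes, CYP51A1, LPIN1, SQLE and SCD among them, have no such error. Separate cultures or clones are not covered by it.

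**Figure D3:**
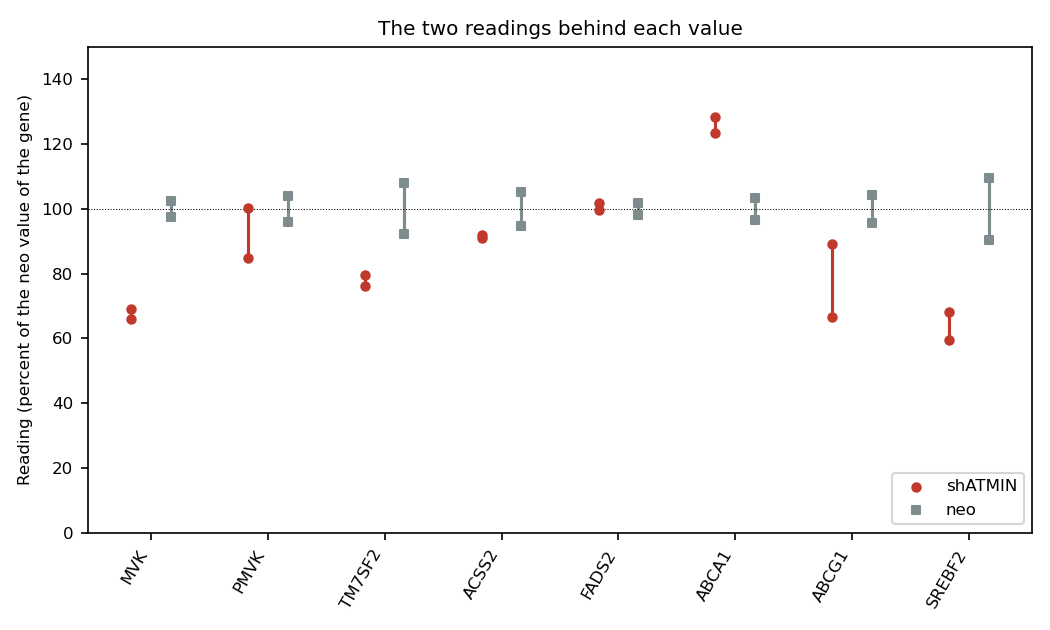
The 2 readings behind each value of the 8 genes resolved in both samples, as a percentage of the neo value of the gene, with shATMIN readings as circles and neo readings as squares joined by lines. The shATMIN pair lies below the neo pair in 5 genes, above it in ABCA1, and overlaps it in PMVK and FADS2.

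The promoters of these genes were examined because so many of them read lower together and because SREBPs are known to bind a short element there, next to sites for the factors NF-Y and Sp1. RefSeq promoters of build GRCh38.p14 were found for 35 of the 40 genes, 49 promoters in all, leaving ABCG1, ACAT2, FASN, FDFT1 and SQLE unsearched. The 250 bases before each start site were searched on both strands for 7 patterns. The element TCACNCCAC was found in 1 gene of the 35, SREBF2, a share of 2.86% against 1.17% of 10144 compared genes with a promoter in the table. A looser form, TCACNCNAC, which includes the first and was kept after the first had matched SREBF2 alone, was found in 5 genes, 14.3% against 2.57%. The CCAAT box, bound by NF-Y, was found in 22 genes, 62.9% against 41.6%, and the GC box GGGCGG, bound by Sp1, in 31 genes, 88.6% against 71.5%. The E-box CACGTG was in 5 genes, 14.3%, against 1113 of the 10144. The remaining patterns overlap the first: CACCCCAC was in 2 genes, 5.71% against 3.35%, and TCACNC in 20 genes, 57.1% against 42.8%. A match is a description of the letters and not of binding. The E-box, which SREBPs can also bind, was in SC5D, ELOVL5, ABCA1, SCAP and INSIG1, and CACCCCAC in ABCA1 and SREBF2. The 5 promoters with the looser element are shown as the matches to that one pattern, and other promoters of the set hold other candidate letters. They are read on the strand of the gene, with the element and every CCAAT box, in either orientation, in capitals.
SREBF2: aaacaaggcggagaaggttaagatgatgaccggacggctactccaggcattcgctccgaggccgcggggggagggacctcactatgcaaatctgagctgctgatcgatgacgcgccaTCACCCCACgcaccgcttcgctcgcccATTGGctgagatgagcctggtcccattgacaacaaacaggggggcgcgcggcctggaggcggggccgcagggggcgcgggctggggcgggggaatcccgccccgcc
FDPS: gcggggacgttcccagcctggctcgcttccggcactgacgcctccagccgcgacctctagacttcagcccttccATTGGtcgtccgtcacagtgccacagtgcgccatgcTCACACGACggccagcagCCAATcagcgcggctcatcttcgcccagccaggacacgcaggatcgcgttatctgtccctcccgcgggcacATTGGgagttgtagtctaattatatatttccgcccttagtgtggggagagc
HSD17B7: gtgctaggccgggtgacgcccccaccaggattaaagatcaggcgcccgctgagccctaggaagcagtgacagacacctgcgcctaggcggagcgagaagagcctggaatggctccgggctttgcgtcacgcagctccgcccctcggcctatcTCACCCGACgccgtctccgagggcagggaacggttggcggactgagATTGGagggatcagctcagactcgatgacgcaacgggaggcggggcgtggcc
ACSS2: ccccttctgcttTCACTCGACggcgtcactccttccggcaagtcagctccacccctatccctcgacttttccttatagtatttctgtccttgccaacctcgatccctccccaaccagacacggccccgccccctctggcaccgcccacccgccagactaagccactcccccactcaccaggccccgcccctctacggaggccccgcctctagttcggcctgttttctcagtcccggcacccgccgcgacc
FADS2: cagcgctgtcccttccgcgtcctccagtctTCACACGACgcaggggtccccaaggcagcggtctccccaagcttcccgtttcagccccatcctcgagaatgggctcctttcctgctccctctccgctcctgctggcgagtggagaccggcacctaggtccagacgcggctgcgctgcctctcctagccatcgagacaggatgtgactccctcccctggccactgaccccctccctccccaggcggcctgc

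These promoters lie on the plus strand at chr22:41832855-41833104 for SREBF2, chr1:155308616-155308865 for FDPS, chr1:162790452-162790701 for HSD17B7, chr20:34876362-34876611 for ACSS2 and chr11:61815953-61816202 for FADS2. Counted so that the base before the start site is -1, the element began at -133 in SREBF2, -140 in FDPS, -98 in HSD17B7, -238 in ACSS2 and -220 in FADS2. In SREBF2, FDPS and HSD17B7 a CCAAT box lay near it, 27, 18 and 46 bases away between first bases, and the ACSS2 and FADS2 windows shown held none. The 5 genes did not differ alike: SREBF2 stood at -0.64, HSD17B7 at -0.35, FDPS at -0.28, ACSS2 at -0.13 and FADS2 at 0.01. CYP51A1, with the lowest difference of the 39 genes, had a GC box and neither the element, the E-box nor a CCAAT box in its window. The element was also absent from the window of INSIG1, a known SREBP target, and absence of these letters is not a measure of binding.

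The mevalonate enzymes, which carry acetyl-CoA to farnesyl diphosphate, read lower in 7 of 7 genes as deposited, against 70.7% of all compared genes, with a median of -0.26. With the level trend removed the median was 0.00 and 3 of the 7 were lower, near the 48.5% of all. HMGCS1, the synthase that makes the substrate of the mevalonate-forming reductase, read 1791 in the shATMIN sample and 2678 in the neo sample, a difference of -0.58. MVK, mevalonate kinase, read 179 against 266, a difference of -0.56. Its readings were 175 and 184 in the shATMIN sample and 260 and 272 in the neo sample, so the pairs did not overlap. These 2 enzymes stayed lower with the trend removed, at -0.31 and -0.44.

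The other mevalonate enzymes differed little on their brightest probes. ACAT2, the cytosolic thiolase that joins acetyl-CoA units, read 981 in the shATMIN sample and 1071 in the neo sample, a difference of -0.13. PMVK, phosphomevalonate kinase, read 339 against 366, and its readings overlapped, at 310 and 367 in the shATMIN sample against 351 and 381 in the neo sample. MVD, the decarboxylase that makes isopentenyl diphosphate, read 625 against 750, a difference of -0.26 that equalled the level trend. IDI1, the isomerase that follows, and FDPS, farnesyl diphosphate synthase, each had a second compared probe with a lower difference. For IDI1 the brighter probe read 4070 in the shATMIN sample and 4654 in the neo sample, a difference of -0.19, and the other read 1279 against 1875, a difference of -0.55. For FDPS the brighter probe read 2799 against 3406, a difference of -0.28, and the other 1312 against 1943, a difference of -0.57. The size of the difference in these 2 genes therefore depends on the probe.

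Enzymes of the committed sterol branch, from squalene to cholesterol, were lower in 11 of 11 genes as deposited, against 70.7% of all, and in 10 of 11 with the level trend removed, against 48.5%, with medians of -0.56 and -0.38. CYP51A1, the lanosterol demethylase, read 835 in the shATMIN sample and 1893 in the neo sample, 2.26-fold lower. It ranked 49 from the lowest of 12421 genes. SQLE, the squalene epoxidase and a rate-limiting step after the mevalonate reductase, read 5315 against 10838, 2.04-fold lower. Both stood well below the level trend, at -0.90 and -0.82 with it removed. MSMO1, the methylsterol oxidase that follows CYP51A1, read 2015 in the shATMIN sample and 3821 in the neo sample, a difference of -0.92, but a second probe read 2202 against 2513, a difference of -0.19.

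Intermediate differences were read for the enzymes on either side of these steps. LSS, which closes the ring to lanosterol, read 984 in the shATMIN sample and 1584 in the neo sample, a difference of -0.69. EBP, the sterol isomerase, read 1292 against 2060, a difference of -0.67. FDFT1, squalene synthase, which draws farnesyl diphosphate into the sterol branch, read 12846 against 18901, a difference of -0.56. DHCR7, the reductase of the last step to cholesterol, was alike in size at -0.54, with 6708 in the shATMIN sample and 9743 in the neo sample. These 4 enzymes lay between -0.33 and -0.41 with the level trend removed.

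The smallest differences of the sterol branch were those of NSDHL, TM7SF2, HSD17B7 and SC5D. NSDHL, a dehydrogenase of the demethylation steps, read 2021 in the shATMIN sample and 2630 in the neo sample, and TM7SF2, a sterol reductase, read 130 against 166. The readings of TM7SF2 did not overlap, at 127 and 132 in the shATMIN sample and 153 and 180 in the neo sample. HSD17B7, the keto-reductase of the same complex, read 435 against 553, and a probe that also names its pseudogene copy HSD17B7P2 read 804 against 938, so the 2 copies may not be told apart. SC5D, the sterol desaturase, read 1822 in the shATMIN sample and 2038 in the neo sample, a difference of -0.16 that became 0.11 with the level trend removed. A second, dimmer SC5D probe read 156 against 248, a difference of -0.67, with readings of 144 and 167 against 227 and 270.

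**Figure D4:**
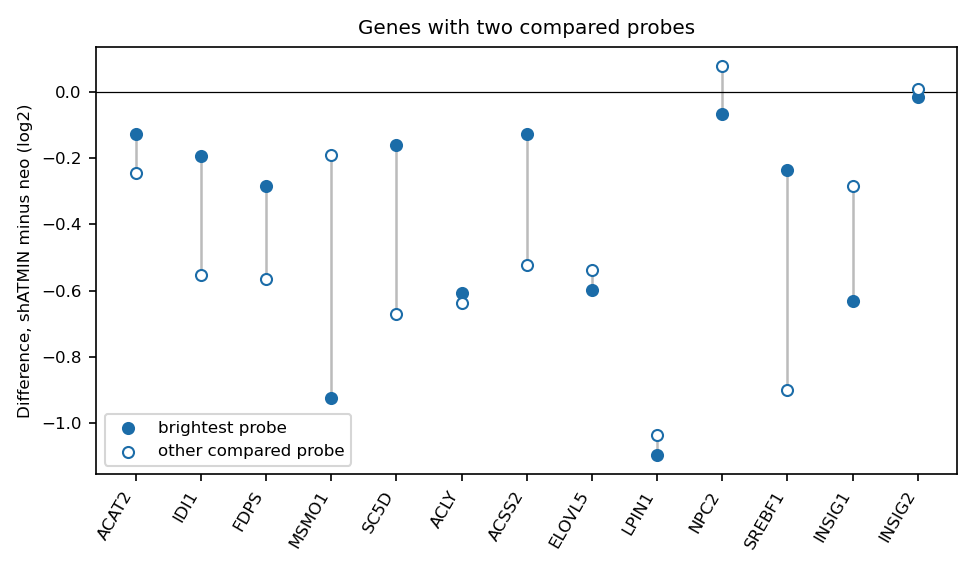
Difference, shATMIN minus neo (log2), for each compared probe of the 13 genes with 2 such probes, with the brightest probe filled and the other open. All probes lie below 0 in 11 genes, NPC2 and INSIG2 straddle 0, and MSMO1, SREBF1 and SC5D have the widest gaps.

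Among the 13 genes with 2 compared probes, 11 had both probes lower as deposited, 84.6%. Of 2973 genes with several compared probes 51.1% had all of them lower. Those 2973 include genes with more than 2 probes, for which this is harder to meet, so the shares are not strictly alike. Probes were not counted in this way with the level trend removed. The SD between probes of a gene was 0.26 in these 13 genes and 0.34 over the 2973. That SD is of a difference between the samples, over compared probes of any level. The SD between readings is within 1 sample and covers only values below 400, so these SDs are not ranked against each other. LPIN1, ACLY and ELOVL5 had probes that differed by at most 0.06 from each other, and MSMO1, SREBF1 and SC5D by 0.73, 0.66 and 0.51.

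Fatty acid synthesis was lower in 9 of 10 genes as deposited, against 70.7% of all, and in 7 of 10 with the level trend removed, against 48.5%, with medians of -0.55 and -0.30. LPIN1, a phosphatidate phosphatase that directs fatty acids into glycerolipids, read 848 in the shATMIN sample and 1811 in the neo sample, 2.13-fold lower. Its second probe read 497 against 1020, a difference of -1.04 beside -1.09 on the brightest probe, so both probes were at least 2-fold lower. SCD, the stearoyl-CoA desaturase that makes monounsaturated fatty acids, read 3845 against 7690, 2.00-fold lower and just short of the 2-fold limit on the log2(intensity + 1) scale.

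The core of the pathway was lower by smaller amounts. ACLY, which splits citrate to cytosolic acetyl-CoA, read 8046 in the shATMIN sample and 12264 in the neo sample, a difference of -0.61, and -0.64 on its second probe. FASN, fatty acid synthase, read 4146 against 6105, a difference of -0.56. ACACA, the acetyl-CoA carboxylase that supplies malonyl-CoA to FASN, read 4182 against 4413, a difference of -0.08 that was 0.16 with the level trend removed. The enzymes before and after the carboxylase thus read lower, and ACACA itself lay near 0. ACSS2, which makes acetyl-CoA from acetate, read 353 against 386 on its brightest probe, a difference of -0.13, and 298 against 429 on the other, a difference of -0.52.

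Elongases and desaturases of longer fatty acids followed FASN with 1 exception. ELOVL5, an elongase of polyunsaturated fatty acids, read 3384 in the shATMIN sample and 5126 in the neo sample, a difference of -0.60, and -0.54 on its second probe. ELOVL6, which extends palmitate, read 1596 against 2304, a difference of -0.53. FADS1, a desaturase of polyunsaturated fatty acids, read 785 against 1141, a difference of -0.54. FADS2, the other desaturase of that route, read 74.998 against 74.5, a difference of 0.01, and its readings overlapped. The FADS2 value lies close to the dim limit.

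Sterol uptake and export did not read as one group. NPC1, the membrane protein that moves cholesterol out of the lysosome, read 946 in the shATMIN sample and 1439 in the neo sample, a difference of -0.60. NPC2, the soluble protein that hands cholesterol to NPC1, read 35375 against 37022, a difference of -0.07, and 3259 against 3091 on its second probe, a difference of 0.08. NPC1 was thus lower while its partner lay near 0. STARD4, a cytosolic sterol carrier, read 47.5 in the shATMIN sample and 62.0 in the neo sample, below the level required for comparison, although its readings of 45.9 and 49.1 lay below those of 61.1 and 62.9.

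ABCA1, which exports cholesterol to lipid-poor apolipoproteins and is known to be switched on by LXR when sterols are plentiful, was the gene of the set with the highest difference. It read 136 in the shATMIN sample and 108 in the neo sample, a difference of 0.33, with readings of 133 and 139 against 104 and 112. ABCG1, a partner exporter that is also an LXR target, read 77.0 against 99.0, a difference of -0.36, with readings of 65.9 and 88.2 against 94.8 and 103. The 2 exporters therefore differed in opposite directions, each on 1 dim probe, and the gap between the shATMIN readings of ABCG1 was the widest of the 8 resolved genes at 0.41.

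Genes of the SREBP system were lower in 7 of 7 as deposited, against 70.7% of all, and in 6 of 7 with the level trend removed, against 48.5%, with medians of -0.63 and -0.38. MBTPS2, the second of the proteases that release SREBPs, read 1331 in the shATMIN sample and 2354 in the neo sample, a difference of -0.82. A dim MBTPS2 probe below the limit read 53.5 against 39.5, with overlapping readings. SCAP, the escort, read 368 against 617, a difference of -0.74. SREBF2, which encodes SREBP2, the main driver of the cholesterol enzymes, read 112 against 176, a difference of -0.64, with readings of 104 and 120 against 159 and 192. The pairs of SREBF2 did not overlap.

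SREBF1, which encodes the SREBP1 isoforms, gave different sizes on its probes. The brighter read 5345 in the shATMIN sample and 6300 in the neo sample, a difference of -0.24, and the other 437 against 816, a difference of -0.90. The sources used here do not say which SREBF1 transcripts each probe detects.

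INSIG1, the retention protein that is itself an SREBP target, read 2481 in the shATMIN sample and 3844 in the neo sample, a difference of -0.63, and 231 against 281 on its dimmer probe, a difference of -0.28. INSIG2, which has the same role and is not known for induction by SREBPs, read 5262 against 5321, a difference of -0.02, and 0.01 on its second probe. MBTPS1, the first of the proteases, lay in between with 1590 in the shATMIN sample and 2013 in the neo sample, a difference of -0.34. As deposited, INSIG1 was thus lower on both of its probes, and INSIG2 lay near 0 on both of its own. With the level trend removed the brightest probes stood at -0.38 for INSIG1 and 0.21 for INSIG2. The second probes were not read on that scale.

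Neighbouring lipid pathways were taken as lists of named genes, and their counts are read against the 70.7% of all compared genes that were lower as deposited and the 48.5% that were lower with the level trend removed. Isoprenoid branch genes, which use the products of the mevalonate route, had 8 of 10 compared genes lower, 80% beside 70.7% of all, and a median of -0.57. ICMT, ZMPSTE24 and RCE1, which trim and methylate prenylated proteins, stood at -1.05, -0.83 and -0.64, and DHDDS, a subunit of the enzyme that makes dolichol precursors, at -0.62. ICMT read 1015 in the shATMIN sample and 2104 in the neo sample. Genes of SREBP transport and sterol-regulated degradation had 11 of 13 lower, 84.6%, and a median of -0.41, with the COPII coat genes SAR1A at -0.74, SEC23A at -0.61, with -0.36 on a second probe, and SEC24C at -0.56, and PAQR3, a Golgi membrane protein, at -0.65. With the level trend removed the medians of these 2 lists were -0.29 and -0.15, and the counts lower were 8 of 10 and 10 of 13, beside 48.5% of all.

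Sterol storage and transfer had 9 of 10 genes lower as deposited, against 70.7% of all, and 7 of 10 with the level trend removed, against 48.5%, and a median of -0.30 as deposited. OSBPL8, a lipid transfer protein, stood at -1.06, the lipoprotein receptor SCARB1 at -0.79, OSBPL2 at -0.53 and SOAT1, which esterifies cholesterol, at -0.45. Other SOAT1 probes gave -0.32 and 0.17. Glycerolipid synthesis and lipolysis had 10 of 12 lower as deposited, 83.3% beside 70.7% of all, and 8 of 12 with the level trend removed. Its median was -0.37, with the monoglyceride lipase MGLL at -0.92, the lipin LPIN2 at -0.65, the acyltransferase DGAT1 at -0.56, with -0.13 on a second probe, and CEPT1 at -0.51. Fatty acid activation and elongation had 12 of 18 lower as deposited, 66.7% and so below the 70.7% of all, and 10 of 18 with the level trend removed. Its median was -0.24, close to the trend at its levels, with the acyl-CoA synthetase ACSL4 at -1.17, the citrate carrier SLC25A1 at -0.71, MCAT of mitochondrial fatty acid synthesis at -0.70, with -0.40 on a second probe, and the elongase ELOVL7 at -0.68. With the level trend removed the medians of the storage, glycerolipid and activation lists were -0.17, -0.16 and -0.04.

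The lists of LXR genes and of fatty acid oxidation lay near the median of all compared genes. The list labelled LXR and its targets held mainly receptors and cofactors, and the LXR targets ABCA1 and ABCG1 were counted in the main set instead. This list had 6 of 7 lower as deposited, against 70.7% of all, with a median of -0.19. With the level trend removed 3 of 7 were lower, near the 48.5% of all. The LXR gene NR1H2 stood at -0.54 with 0.08 on a second probe, the ubiquitin ligase MYLIP at -0.47 with 0.23 on a second probe, RXRB at -0.46, and the coactivator NCOA1 at 0.32 with -0.58 on a second probe. Fatty acid oxidation had 10 of 13 lower as deposited, 76.9% and near the 70.7% of all, and 5 of 13 with the level trend removed, below the 48.5% of all, with a median of -0.16. CPT1A, which commits fatty acids to entry into mitochondria, read 1394 in the shATMIN sample and 745 in the neo sample, a difference of 0.90, while CPT2, HADHA and ECHS1 of the later steps stood at -0.50, -0.43 and -0.41. CPT1A was the only gene of the 7 lists that was at least 1.5-fold higher.

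**Figure D5:**
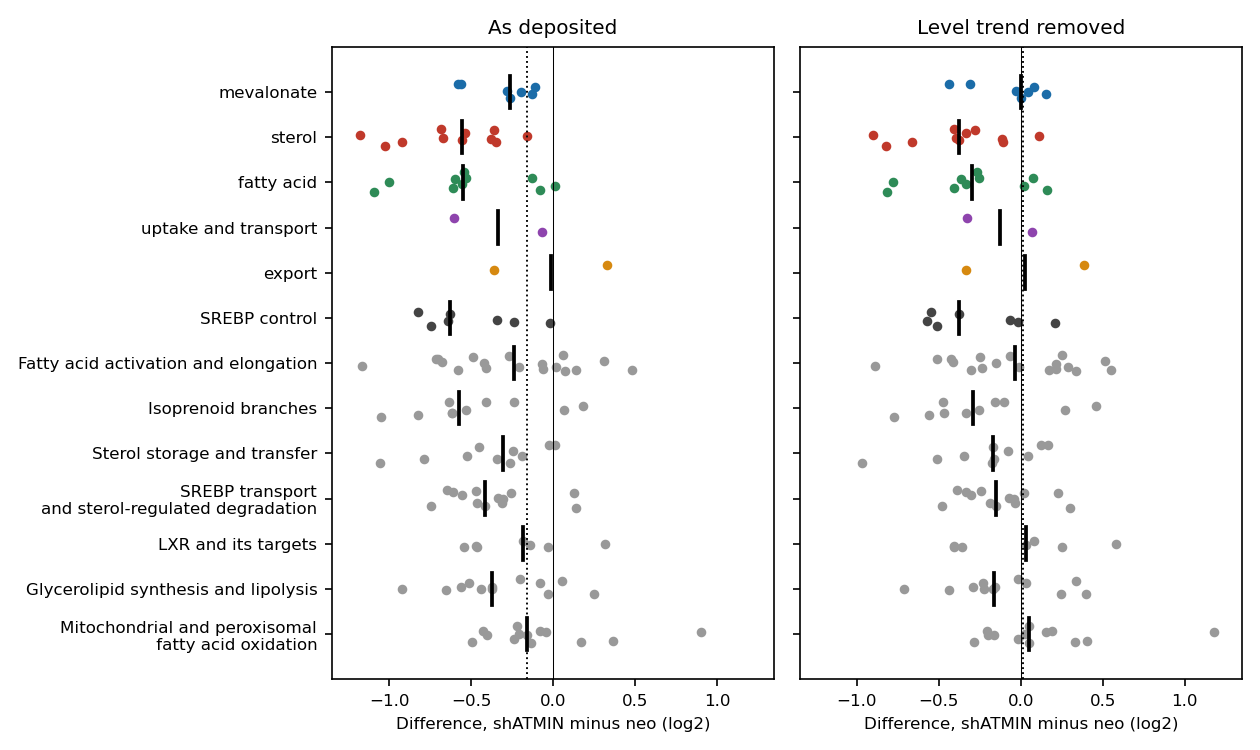
Difference, shATMIN minus neo (log2), of each compared gene by step of the sterol and fatty acid set in colour and by neighbouring lipid list in grey, as deposited on the left and with the level trend removed on the right, with list medians as black bars and the median of all compared genes as a dotted line. The sterol, fatty acid, SREBP control and isoprenoid medians lie left of the dotted line in both panels. So do the uptake, sterol storage, SREBP transport, glycerolipid and fatty acid activation medians, by smaller amounts. The mevalonate median meets the line on the right.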

How the data were processed

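RNA was extracted with Trizol, amplified and labelled with Cy5, per the labels' protocols. The deposited values are linear intensities, 1 per probe and sample, read from the values as background-subtracted, with 41 probes below 0 in the shATMIN sample and 46 in the neo sample. The sources used here name no scanner, background correction, normalization or way of combining arrays. Probes were named from the platform annotation, updated through a RefSeq table of GRCh38.p14. A single gene was named by 24740 of the 31741 probes, several genes by 977, and no gene by 6024, and SC5D was matched through an older symbol.

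Intensities below 0 were replaced by 0, and log2(intensity + 1) was used. The scale understates differences of dim genes. A gene's brightest probe was compared where its mean level reached the 40th percentile of all probes. No test was made. The loess span was 0.3. Readings were recovered for values below 400, from the unique whole-number pair within 2-fold of each other that gives the value, with a tolerance of 0.25 in the difference of the counts and fitted scale factors of 1.0019 and 0.9981 in the shATMIN sample and 1.0022 and 0.9978 in the neo sample. A unique pair was found for 97.4% and 96.8% of these values. The method, tolerance and limit were chosen after seeing the data. An earlier limit of 2000 was dropped after every value was moved off the grid by the same fraction of a count, which should give no pair. A unique pair was still found for 91.0% of shATMIN and 97.1% of neo values between 1000 and 2000. Between 100 and 400 it was found for 0.0% and 0.015%. The same shift was used for every value, so these shares belong to that shift and are not a general rate of false pairs. On simulated readings the recovery was complete for scale factors of the form from which the fit starts and incomplete, with some wrong pairs, for another form. The promoter patterns were also chosen after seeing the data.

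The genes and the lists were chosen with earlier results of these data known. All 40 genes were to be reported, and in each of 7 neighbouring lists up to 4 compared genes with the greatest absolute difference. The number of arrays limits the precision. The number of unassigned columns was 0. The comparison was also tested on simulated data. A total of 11 alternatives of scaling, dim filter, probe choice, pseudocount and naming were tried. The tools were pandas 2.3.3 and NumPy 2.4.6 in Python 3.11.15, with statsmodels 0.14.6 for loess and matplotlib 3.10.9 for plots.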

Additional observations from a re-analysis of the deposited data

How the results depend on the processing

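The count of lower sterol and fatty acid genes was between 28 and 38 over the 11 alternatives, against 37 as deposited. The number compared was 34 with the 60th percentile dim filter and 40 with no dim filter, against 39 as deposited. Of all compared genes 70.7% were lower as deposited, 41.2% after scaling to the 75th percentile and 48.5% with the level trend removed. The median difference of the set stayed below 0, between -0.55 and -0.30. The count of genes at least 1.5-fold lower was 14 as deposited, against 12.2% of all, and 6 after scaling to the 75th percentile, against 3.9%. It was 5 with quantile normalization, where the share of all genes was not computed, and 5 with the level trend removed, against 4.63%. The count at least 2-fold lower was 3 as deposited, against 1.34% of all, and 0 under each of those 3 settings. The share of all genes was then 0.29% after scaling to the 75th percentile and 0.354% with the level trend removed. These settings change the level against which all genes are read, and they moved the median of all compared genes from -0.16 to 0.07, 0.00 and 0.01. The mevalonate median lay at -0.03, -0.01 and 0.00 under them. Of 423 values of single genes under the alternatives, 3 moved by more than 0.34, the SD between probes, and these were MSMO1 at -0.56 with the mean of its probes, and MSMO1 at -0.19 and INSIG1 at -0.28 on the probe with the smallest difference. No gene at least 1.5-fold lower changed direction. No paired analysis was possible because each group holds 1 sample. With 1 sample per group the values do not separate knock-down, clone and culture, and values above 400 could not be resolved into readings.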
